A study of Mus musculus with 4 samples.

Results

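The cyclin-dependent kinase (CDK) inhibitor genes were examined in sorted mouse bone marrow cells that differed in Fancd2 and Foxo3a. The members were the 7 genes Cdkn1a, Cdkn1b, Cdkn1c, Cdkn2a, Cdkn2b, Cdkn2c and Cdkn2d, chosen by name from the 22180 genes that had a probe set with exactly 1 gene symbol. Each member had 1 such probe set, so 7 probe sets carried all of the results. RNA was hybridised to 4 Affymetrix whole-transcript mouse gene arrays, 1 for each genotype. These were wild-type mice (WT), mice without Fancd2 (Fancd2KO), mice without Foxo3a (Foxo3aKO) and mice without either (DKO). Mice of every genotype were 2 months old. The cells came from femurs and tibias, passed a Ficoll gradient and were sorted as negative for lineage antigens and CD34 and positive for c-Kit and Sca-1, a gate used to enrich stem cells with long-term activity. SLAM is their name in the labels, which list no SLAM antigen. The sources used here do not give the knockout alleles, the number of mice behind an array or whether animals were pooled.

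CDK inhibitors bind cyclin and CDK complexes and hold cells in G1 or outside the cycle. The CIP/KIP family, p21 (Cdkn1a), p27 (Cdkn1b) and p57 (Cdkn1c), acts on CDK2 complexes and also on cyclin D complexes. The INK4 family, p16 (Cdkn2a), p15 (Cdkn2b), p18 (Cdkn2c) and p19 (Cdkn2d), binds CDK4 and CDK6. Haematopoietic stem cells are mostly quiescent in adult marrow, p57 and p27 are known for roles in that state, and Cdkn1a is a classical p53 target. FOXO factors are known to induce Cdkn1b and Cdkn1a in several cell types. The design asks how loss of a crosslink repair protein, loss of a FOXO factor and both losses go with the expression of such genes.

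The promoters of Cdkn1a and Cdkn1b are shown because these were the members with a difference of at least 2-fold between arrays. RefSeq windows of build GRCm38.p6 were found for 6 of the 7 members, 9 windows in all, and Cdkn1c had none in the table. Each sequence below is the run of 250 bases that ends just before an annotated transcription start, read 5′ to 3′ on the gene's strand, which is the plus strand for all 3. Cdkn1a has 2 annotated starts that lie 2790 bases apart. Capitals mark the p53 core pair (CATG, any 6 bases, then CATG again) or a GC box (GGGCGG, bound by Sp1). A FOXO site (TGTTTAC), a cyclic AMP response element (TGACGTCA) and the letters TATAA were searched too.
Cdkn1a, upstream start, chr17:29090729-29090978: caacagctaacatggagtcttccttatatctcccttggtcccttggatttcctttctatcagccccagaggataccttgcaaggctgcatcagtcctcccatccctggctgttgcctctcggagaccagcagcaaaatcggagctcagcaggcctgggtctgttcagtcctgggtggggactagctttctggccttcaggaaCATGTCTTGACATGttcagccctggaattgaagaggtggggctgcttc
Cdkn1a, downstream start, chr17:29093519-29093768: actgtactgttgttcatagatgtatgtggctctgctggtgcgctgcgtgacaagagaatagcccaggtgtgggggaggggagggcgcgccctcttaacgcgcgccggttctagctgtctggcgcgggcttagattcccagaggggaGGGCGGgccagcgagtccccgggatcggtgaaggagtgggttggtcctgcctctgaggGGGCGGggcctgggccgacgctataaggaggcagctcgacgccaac
Cdkn1b, chr6:134920151-134920400: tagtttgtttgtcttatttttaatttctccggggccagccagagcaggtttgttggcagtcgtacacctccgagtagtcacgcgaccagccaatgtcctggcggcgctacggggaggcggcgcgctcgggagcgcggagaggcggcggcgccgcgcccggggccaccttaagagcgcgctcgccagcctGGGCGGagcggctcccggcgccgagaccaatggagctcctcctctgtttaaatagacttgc
The window before the upstream start of Cdkn1a held the p53 core pair, whose first letter lay 48 bases before the start. These letters, searched on both strands, were in 161 of 32851 windows of the same length, or 0.49%. The window before the downstream start had GC boxes beginning 104 and 46 bases before it, and that of Cdkn1b had one 61 bases before the start. GC boxes were in 5 of the 9 member windows and in 32.7% of all windows. The cyclic AMP response element was found once among the members, in the Cdkn2b window, and in 1.55% of all windows. The FOXO letters were in 0 of the 9 member windows and in 3.17% of all windows, which says only that these letters are not in these windows. TATAA, searched on both strands, matched in 2 of the 9 windows, those of Cdkn1a, and in 22.8% of all windows. On the gene's strand it was only in the downstream Cdkn1a window, 25 bases before the start. The upstream Cdkn1a window held only its reverse complement, TTATA, 227 bases before the start. The transcripts under each probe set were not known, so no signal can be assigned to either Cdkn1a start.

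**Figure D1:**
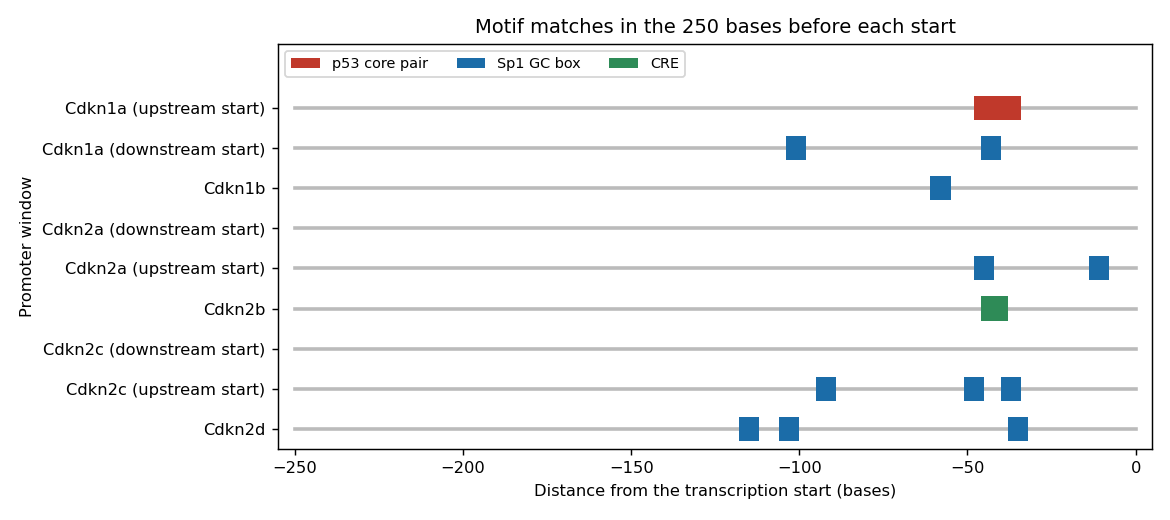
Matches of 3 motifs in the 250 bases before each RefSeq start of the CDK inhibitor genes; the x axis is the distance from the start in bases and each grey line is 1 of the 9 windows. The p53 core pair appears in 1 window, that of the upstream Cdkn1a start, and GC boxes in 5.

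All values below are log2 signals as deposited, so a difference of 1 is 2-fold, and with 1 array per genotype no difference has a replicate check or a p-value. As a guide to technical error, the disagreement between both probe sets about the same difference was taken over 728 genes with exactly 2. Against WT its SD was 0.49 log2 in Fancd2KO, 0.47 in Foxo3aKO and 0.52 in DKO, with 95% of disagreements under 0.92, 0.94 and 0.96. Both probe sets of a gene were read on the same arrays, so this disagreement leaves out variation between arrays, sorts and animals. A difference beyond it may still lie within that variation, which was not measured. A floor of 5.51 log2, the median of all gene values, marked dim signals; 12041 genes reached it on at least 1 array. The GC rich control probe sets, which measure background, had medians of 6.59, 6.51, 6.06 and 6.70 log2 on the WT, Fancd2KO, Foxo3aKO and DKO arrays. Of the members, 6 reached the floor, and Cdkn2a did not. Array medians ran from 5.27 to 5.34 log2.

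The gate was checked against marker genes. All 12 measured stem cell markers were above the floor on every array, with mean signals of 8.38 to 8.66 log2. In WT, Vwf (6.19) and Hoxb5 (6.37) were under the GC rich background median of 6.59. Cd34 stood at 10.79, 10.28, 9.67 and 10.36 log2 in WT, Fancd2KO, Foxo3aKO and DKO, although the gate is CD34-negative. Vwf, Hoxb5 and Cd34 were picked out after their values were seen. Neutrophil markers were above the floor on every array too (13 of 13), although the gate excludes lineage-positive cells. Their mean signal was highest on the Foxo3aKO array (11.47 log2), followed by WT (11.07), Fancd2KO (10.78) and DKO (10.76). Of the targeted genes, Fancd2 stood at 6.56, 6.08, 6.67 and 5.84 log2 and Foxo3 at 6.62, 6.72, 6.64 and 6.51 in WT, Fancd2KO, Foxo3aKO and DKO. Foxo3 was lowest on the DKO array, while the Foxo3aKO array stood slightly above WT. Which exons were deleted is not stated in the sources used here, so the Foxo3 signal checks no label. Directions with Foxo3a loss rest on the labels.

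**Figure D2:**
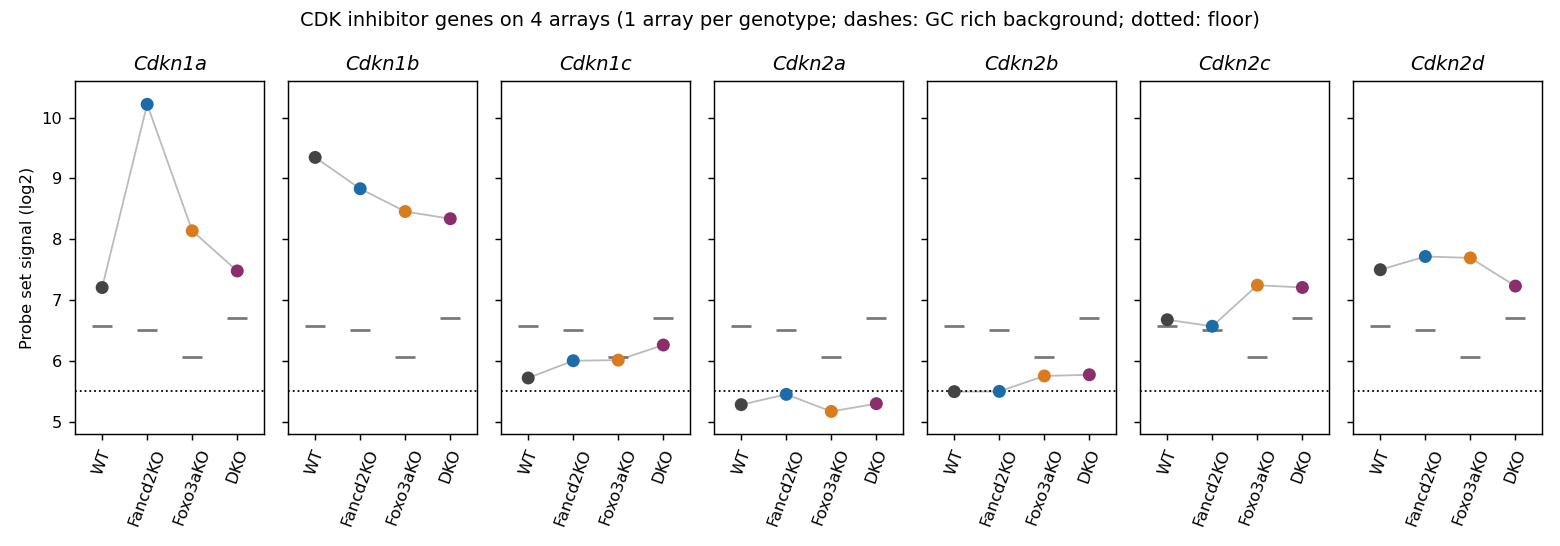
Signal of each CDK inhibitor probe set (log2, y axis) on the 4 arrays (x axis); coloured points are single arrays, grey dashes the array's GC rich background median and the dotted line the floor of 5.51. Cdkn1a peaks at 10.22 on the Fancd2KO array and Cdkn1b runs down from 9.35 in WT to 8.34 in DKO, while Cdkn2a stays below the floor.

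Cdkn1a, which encodes p21, was by far the most variable member. Its signal (probe set 17335467) was 7.21 log2 on the WT array, 10.22 on Fancd2KO, 8.14 on Foxo3aKO and 7.48 on DKO. The Fancd2KO array stood apart from the rest, Foxo3aKO was second, and WT and DKO were lowest and close to each other. In linear terms the Fancd2KO signal was 8.05-fold that of WT, a log2 difference of 3.01, or 6.13 times the SD of probe set disagreement. That was the 14th largest difference of the 12041 genes in either direction and the 7th largest of the higher ones. It was the 1 member called at 2-fold in this comparison, in which 3.03% of all genes differed by as much, 1.68% higher and 1.35% lower. In Foxo3aKO the difference from WT was 0.93 log2, just under the 95% limit of disagreement, and 3.87% of genes differed by as much. In DKO it was 0.27 log2, which lay within the SD of disagreement and was matched or exceeded by 40.3% of genes.

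The DKO array, labelled as lacking Foxo3a as well, did not show the high Cdkn1a signal of Fancd2KO. DKO was lower than Fancd2KO by a log2 difference of -2.74, or 6.66-fold, the 10th largest of the lower differences in that comparison. Cdkn1a was the 1 member called here, where 3.01% of genes were at least 2-fold apart, 1.51% lower and 1.5% higher. DKO was also lower than Foxo3aKO, by -0.66 log2, which 9.53% of genes reached in size. If both losses had added up on the log2 scale, DKO would have stood at 11.15 log2. The observed 7.48 departed from this by -3.67 log2, or 12.7-fold, the 14th largest departure below the additive level. The SD of disagreement for this departure was 0.72, and 8.42% of genes lay at least 2-fold from the additive level, 4.43% below and 3.99% above it. Cdkn1a was the 1 member of the 7 that did so. The Cdkn1a differences of 3.01, -2.74 and -3.67 all use the same Fancd2KO value of 10.22, so they are not separate results.

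Cdkn1b, which encodes p27, ran the other way and was lowest in DKO. Its signal (probe set 17463718) was 9.35 log2 on the WT array, 8.83 on Fancd2KO, 8.46 on Foxo3aKO and 8.34 on DKO. All 3 knockout arrays were below WT, and both arrays labelled as lacking Foxo3a were below both others. The first of these patterns was shared by 27.6% of all genes and the second by 21.2%, so neither sets Cdkn1b apart by itself. The difference from WT was -0.51 log2 in Fancd2KO, -0.89 in Foxo3aKO and -1.01 in DKO. Of these, that of DKO was past the 95% limit of disagreement, while the others were inside it. DKO was thus 2.01-fold below WT, at the 2-fold threshold, in a comparison in which 3.09% of genes were at least 2-fold apart, 1.72% lower and 1.37% higher. Cdkn1b was the 1 member called, at place 202 of the lower genes, and the call ended under quantile normalisation (-0.93) and cyclic loess (-0.94). The mean of both Foxo3a-null arrays was 8.40 log2 against 9.09 for the others, a difference of -0.69. DKO differed from Foxo3aKO by only -0.12 and from Fancd2KO by -0.49, and it lay 0.40 above the additive level of 7.94, all within the SD of disagreement. In bulk RNA, fewer cells that express a gene and less RNA per cell cannot be told apart.

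Cdkn1c, the imprinted gene of p57, was dim on all arrays. Its signal (probe set 17498245) was 5.72 log2 on the WT array, 6.01 on Fancd2KO, 6.02 on Foxo3aKO and 6.27 on DKO. WT was lowest and DKO highest, and every value lay above the floor but under the GC rich background median of its array. The largest difference, 0.54 log2 for DKO minus WT, was 1.05 times the SD of disagreement and was reached in size by 13.4% of genes. With values under the GC rich background raised to it, all 4 arrays became equal. The genes around Cdkn1c were described as a list of 10, which includes Phlda2, an imprinted growth regulator, and Kcnq1ot1, the long noncoding RNA that silences the domain on the paternal copy. Of the 8 that reached the floor, 0 were 2-fold apart from WT in any of the knockouts, where 3.03% to 3.11% of all genes were. Kcnq1ot1, picked out after its values were seen, stood at 7.68, 7.78, 7.86 and 7.54 log2 in WT, Fancd2KO, Foxo3aKO and DKO. The largest differences were Tssc4 (0.55) and the transporter gene Slc22a18 (-0.37) in Fancd2KO, Phlda2 (-0.60) and Slc22a18 (-0.44) in Foxo3aKO, and Osbpl5 (0.54) and Slc22a18 (-0.43) in DKO.

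Cdkn2c, which encodes p18, a restraint on stem cell self-renewal, was higher on both arrays labelled as lacking Foxo3a. Its signal (probe set 17428217) was 6.68 log2 on the WT array, 6.57 on Fancd2KO, 7.25 on Foxo3aKO and 7.21 on DKO. The arrays thus fell into a lower and a higher pair by Foxo3a label, with a gap of 0.53 log2 between the pairs and a difference of 0.60 between their means (7.23 against 6.63). Cdkn1c and Cdkn2b were also higher on both Foxo3a-null arrays, by gaps of 0.00995 and 0.25 log2, and 13.9% of all genes showed that order. Both of these genes were under the GC rich background median of every array. Against WT, Cdkn2c differed by 0.57 log2 in Foxo3aKO and 0.53 in DKO, 1.20 and 1.03 times the SD of disagreement and inside its 95% limit. The GC rich background did not follow the order of Cdkn2c, being lowest in Foxo3aKO and highest in DKO. On the lower pair Cdkn2c was close to that background, at 6.68 in WT and 6.57 in Fancd2KO against medians of 6.59 and 6.51. DKO lay 0.07 log2 above the additive level and -0.04 from Foxo3aKO, both within the SD of disagreement.

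The other INK4 genes differed little. Cdkn2d, which encodes p19 of the INK4 family, had signals (probe set 17524698) of 7.50 log2 on the WT array, 7.72 on Fancd2KO, 7.70 on Foxo3aKO and 7.23 on DKO. DKO was lowest and both other knockouts were slightly above WT, with no difference between arrays beyond the SD of disagreement. It lay -0.68 log2 from the additive level, which 19.4% of genes reached in size. Cdkn2b, which encodes p15, had signals (probe set 17427155) of 5.50, 5.50, 5.76 and 5.78 log2 in WT, Fancd2KO, Foxo3aKO and DKO, just below the floor on the first 2 of these arrays and just above it on the others. Cdkn2a, the shared locus of p16 and the p53 activator Arf, had signals (probe set 17427147) of 5.29, 5.46, 5.17 and 5.30 log2 on the same arrays. These signals were below the floor on all 4 arrays, so the Cdkn2a differences of -0.11 to 0.17 log2 from WT carry no direction. One probe set covers the Cdkn2a locus, so p16 and Arf transcripts were not told apart.

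Across the family, 1 member was at least 2-fold higher and 0 lower in Fancd2KO, 0 and 0 in Foxo3aKO, and 0 and 1 in DKO. Against WT, 3.11% of genes were at least 2-fold apart in Foxo3aKO, 1.81% higher and 1.3% lower, and the split of those 218 and 156 genes turned to 185 and 211 with each array centred on its median. Between DKO and Foxo3aKO no member was called, where 3.36% of genes were at least 2-fold apart, 1.18% higher and 2.18% lower. The median difference from WT over the 6 members at the floor was 0.11 log2 in Fancd2KO, 0.28 in Foxo3aKO and 0.27 in DKO, beside -0.01, -0.04 and -0.03 over all genes. Members differ in direction, so these medians describe no single gene.

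**Figure D3:**
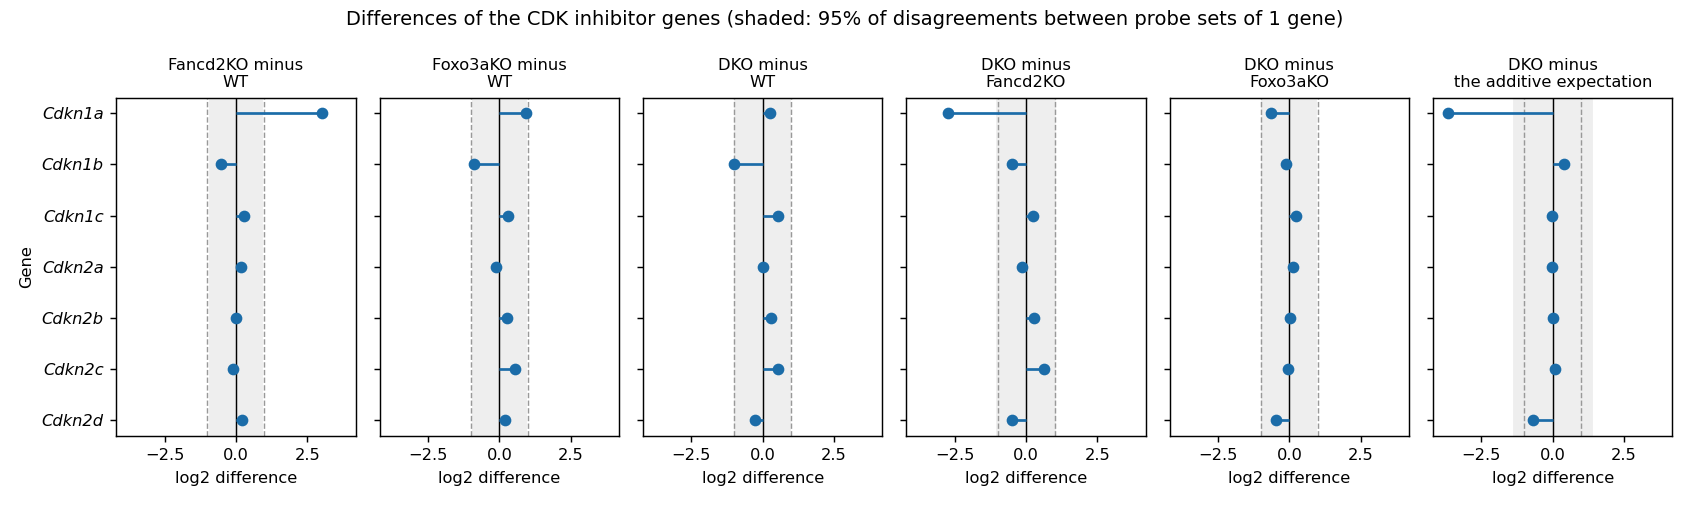
Log2 differences (x axis) of the 7 CDK inhibitor genes (rows) in 6 comparisons (panels); points are differences between single arrays, the shaded band holds 95% of the disagreements between probe sets of 1 gene and dashed lines mark 2-fold. Cdkn1a leaves the band in Fancd2KO minus WT (3.01), DKO minus Fancd2KO (-2.74) and DKO minus the additive expectation (-3.67), and Cdkn1b reaches -1.01 in DKO minus WT.

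Of the partners of the inhibitors, 13 G1 cyclins and kinases were measured, and 0 were 2-fold apart from WT in any knockout. With 3.03% to 3.11% of all genes past 2-fold in these comparisons, a count of 0 in 13 is near the background. In Foxo3aKO 10 of the 13 were below WT, with a list median of -0.23 log2 beside -0.04 over all genes, and the medians were -0.03 in Fancd2KO and in DKO. The largest differences were Cdk7 (0.28), which encodes the CDK-activating kinase, and Ccnd3 (-0.21), a D cyclin, in Fancd2KO. In Foxo3aKO they were Mnat1 (-0.69), which encodes the assembly factor of that kinase, and the D cyclin gene Ccnd2 (-0.50), and in DKO Cdk7 (-0.58) and Ccnd1 (0.42). Cdk6, which encodes an INK4 target and was picked out after its values were seen, stood at 9.87, 9.95, 9.75 and 9.84 log2 in WT, Fancd2KO, Foxo3aKO and DKO. Of 18 pocket protein, E2F and DREAM genes, 1 was 2-fold higher in Fancd2KO, the repressor E2f7 (1.03), and 1 was 2-fold lower in DKO, the DREAM subunit Lin9, by just over that. Of 13 genes for turnover of the inhibitor proteins, 0 were 2-fold apart from WT. Skp2, the ubiquitin ligase subunit that marks p27 for degradation, stood at 7.07, 7.06, 6.96 and 7.05 log2 on the 4 arrays in the same order, and was picked out after its values were seen. Its cofactor Cks1b (0.54) and Psme3 (-0.35) differed most in Fancd2KO, Ddb1 (-0.58) and Ubac1 (-0.42) in Foxo3aKO, and the p27 kinase gene Uhmk1 (0.38) and Cul4a (0.22) in DKO.

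Of 26 measured proliferation genes, those of S phase and mitosis, 0 were 2-fold apart from WT in Fancd2KO, Foxo3aKO or DKO. Of all genes, 3.03%, 3.11% and 3.09% were, so a count of 0 in 26 is near the background. The list medians were 0.02, -0.08 and -0.08 log2. Mki67, the standard proliferation marker, stood at 9.80, 9.79, 9.89 and 9.69 log2 in WT, Fancd2KO, Foxo3aKO and DKO, and was picked out after its values were seen. The largest differences were Cenpa (0.66) and Rrm2 (-0.52) in Fancd2KO, Gins2 (-0.66) and the licensing factor gene Cdt1 (-0.60) in Foxo3aKO, and Rrm2 (-0.47) and Cdt1 (-0.41) in DKO. On the Fancd2KO array, where Cdkn1a was 3.01 log2 above WT, Mki67 differed by -0.01 and the list ran from Rrm2 (-0.52) to Cenpa (0.66). Whether Cdkn1a affected cycling was not tested.

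Genes of stem cell quiescence split between a few stimulus-induced genes and the rest. Of 22 measured, 5 were at least 2-fold higher and 1 lower in Fancd2KO, 5 and 0 in Foxo3aKO, and 1 and 1 in DKO. Over all genes these shares were 1.68% and 1.35%, 1.81% and 1.3%, and 1.37% and 1.72%. The list medians were 0.10, -0.03 and -0.03 log2. Quiescence genes with the largest differences in Fancd2KO were the nuclear receptor genes Nr4a2 (3.30), Nr4a1 (2.81) and Nr4a3 (2.22) and the early growth response gene Egr1 (2.14). In Foxo3aKO the same 4 led, at 2.69, 1.85, 1.13 and 1.67. In DKO, Nr4a2 was 1.27 higher and Tek, the angiopoietin receptor gene, 1.25 lower (-1.25).

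Known regulators of the inhibitor genes included several of the same genes. Of 26 regulators at the floor, 4 were at least 2-fold higher in Fancd2KO, where 1.68% of all genes were. They were Egr1, the Notch target Hes1 (1.81), Klf4 (1.58) and Klf6 (1.16). In Foxo3aKO, where 1.81% of all genes were 2-fold higher, the 4 were Egr1, Klf4 (1.49), Klf6 (1.20) and Ets2 (1.13). In DKO 0 of 26 were 2-fold apart, beside 3.09% of all genes, with Hes1 at 0.68 and Klf4 at 0.64. Klf4 and Klf6 are known activators of Cdkn1a. Egr1, Klf4 and Klf6, and Btg2 and the Nr4a genes of the quiescence list, are also counted among the immediate early genes. The counts of these lists are therefore not separate.

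Other p53 targets differed from WT in some genes of the list. Of 16 at the floor, 2 were at least 2-fold higher in Fancd2KO, where 1.68% of all genes were, Plk2 (1.97) and the death receptor gene Tnfrsf10b (1.72), with a median of 0.09 log2 (0.24 in Foxo3aKO and 0.22 in DKO). Of the same 16, 3 were 2-fold higher in Foxo3aKO (Plk2 1.65, Plk3 1.38 and Btg2 1.10) and 1 in DKO (Phlda3 1.09), beside 1.81% and 1.37% of all genes. With values under the GC rich background raised to it, the list medians in Foxo3aKO and DKO became 0. Over all 18 measured, the medians were 0.09, -0.03 and 0.22 in Fancd2KO, Foxo3aKO and DKO, so the sign in Foxo3aKO depends on the floor. Pmaip1 (5.19 in WT) and Perp (5.36 in WT) reached the floor only in Foxo3aKO and DKO. Of the 16, 9 were above WT and 7 below it in Fancd2KO, 8 and 8 in Foxo3aKO, and 10 and 6 in DKO. The largest lower differences in Fancd2KO were Aen (-0.63) and Fas (-0.50). Mdm2 and Ccng1, p53 targets in most tissues, differed from WT by 0.47 and 0.33 in Fancd2KO and by 0.49 and -0.10 in Foxo3aKO. In DKO they differed by -0.02 and -0.11. Aen, Fas, Mdm2, Ccng1, Pmaip1 and Perp were picked out after their values were seen. Other FOXO targets were below WT more often than above it in all knockouts. Of 19 measured, the number below WT was 13 for Fancd2KO, 14 for Foxo3aKO and 18 for DKO. Their medians were -0.22, -0.15 and -0.42 log2, beside -0.01, -0.04 and -0.03 over all genes. The share of all genes below WT was not counted. FOXO targets at least 2-fold apart were the sphingosine receptor gene S1pr1 (1.47) and Txnip (-1.02) in Fancd2KO and Klf2 (1.07) in Foxo3aKO. In DKO it was the interleukin 7 receptor gene Il7r (-1.31). Of all genes, 3.03%, 3.11% and 3.09% were 2-fold apart. With the same raised values, the DKO median of the FOXO targets was -0.21. Klf2 and Btg2 are also counted among the immediate early genes, and Txnip and Btg2 among the quiescence genes. Il7r is also a marker of the multipotent progenitor list. The p53 and FOXO target counts are therefore not separate from those of these lists.

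**Figure D4:**
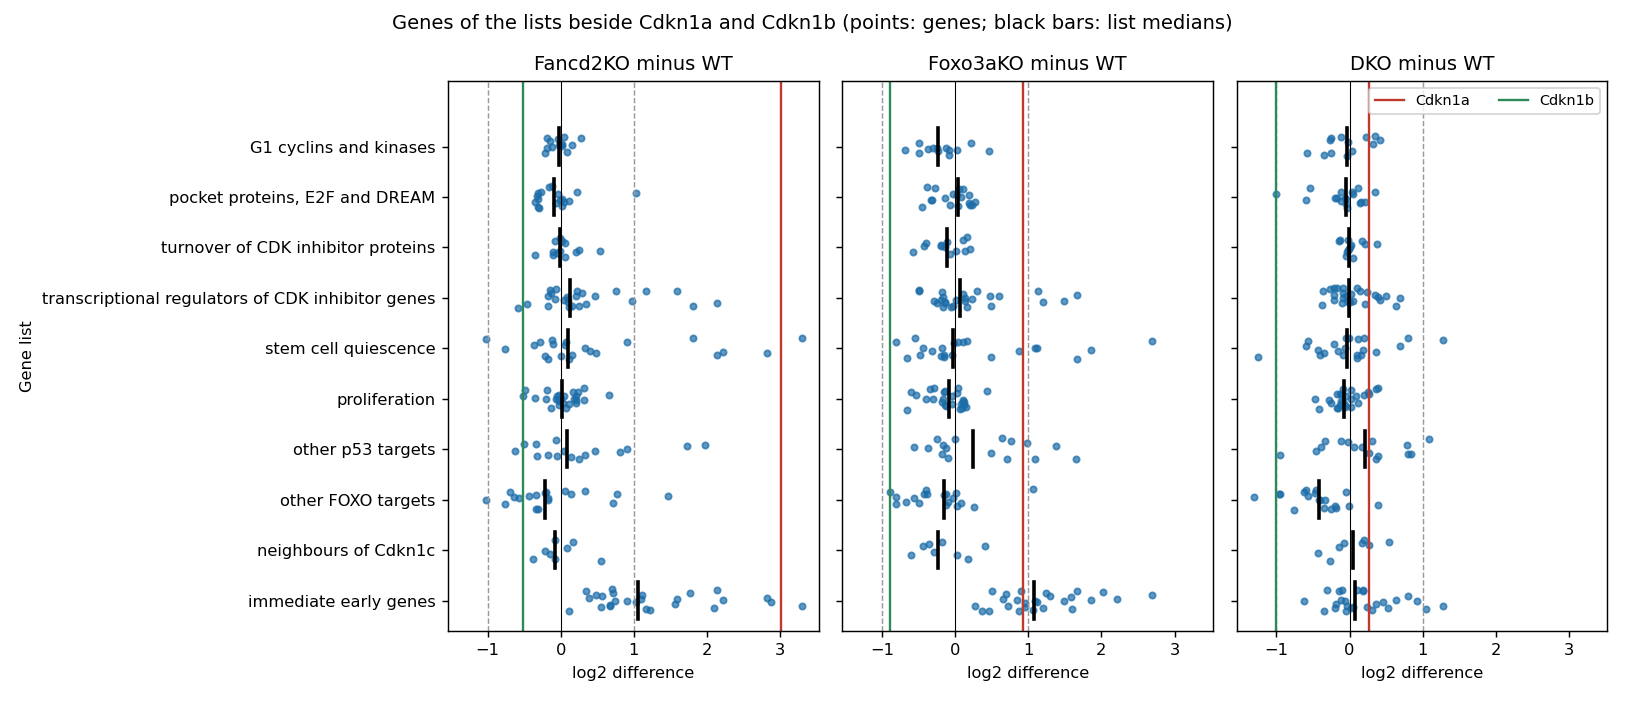
Log2 differences from WT (x axis) of the genes at the floor in 10 lists (rows) for the 3 knockouts (panels); points are genes, black bars list medians, and coloured lines the values of Cdkn1a and Cdkn1b. Immediate early genes lie to the right in Fancd2KO and Foxo3aKO, with medians of 1.06 and 1.08, and near 0 in DKO (0.07), while G1 cyclins and proliferation genes stay within 1 of 0 on all 3.

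Immediate early genes, which cells switch on within minutes of a stimulus, were high on the same arrays as Cdkn1a. All 26 were above WT in Fancd2KO and in Foxo3aKO, with medians of 1.06 and 1.08 log2 beside -0.01 and -0.04 over all genes. On each array 14 of 26 were at least 2-fold higher, beside 1.68% and 1.81% of all genes. In DKO 15 of 26 were above WT, with a median of 0.07, and 2 were at least 2-fold higher, Nr4a2 and Atf3 (1.05). Of all genes, 1.37% were 2-fold higher in DKO. All 26 lay at least 2-fold below the additive level in DKO, as Cdkn1a and 4.43% of all genes did. Their median departure was -2.01 log2. It is calculated from the same differences from WT, so it is not a separate result. Leading genes in Fancd2KO were Nr4a2, the cytokine signalling inhibitor Socs3 (2.88), Nr4a1 and Nr4a3, while Foxo3aKO was led by Nr4a2, Atf3 (2.22), Hspa1b (2.02), which encodes a heat shock protein, and Nr4a1. The list had nearly equal medians on both arrays, while Cdkn1a was 3.01 and 0.93 log2 above WT. These comparisons share the WT array, and the part of cell handling in them was not tested.

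Genes with a pattern like that of Cdkn1a were sought by the distance between their 3 log2 differences from WT, over 605 genes that could be named and had at least 1 difference of 2-fold. The nearest was Socs3, at a distance of 0.43 log2, with differences of 2.88, 1.25 and 0.53 in Fancd2KO, Foxo3aKO and DKO. Next came Sparcl1 (0.54), Vsnl1 (0.62), the neurofilament gene Nefl (0.76) and Nr4a3 (0.88). In WT, Socs3 (4.97), Sparcl1 (4.26), Vsnl1 (3.82) and Nefl (3.38) were under the floor. In DKO they were under it too, at 5.50, 4.22, 4.35 and 3.79. Vsnl1 (5.10) and Nefl (4.26) were also under the floor in Foxo3aKO, so both reached it on the Fancd2KO array alone. For Cdkn1b the nearest were Homez, a homeobox gene (0.11), the TGF-beta corepressor gene Tgif1 (0.16), Dennd1c (0.20), the interleukin 12 subunit gene Il12a (0.21) and Rtl8c (0.21). Homez differed from WT by -0.60, -0.95 and -1.02 in Fancd2KO, Foxo3aKO and DKO. Near values over 3 differences that share 1 WT array are a description of these arrays.

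**Figure D5:**
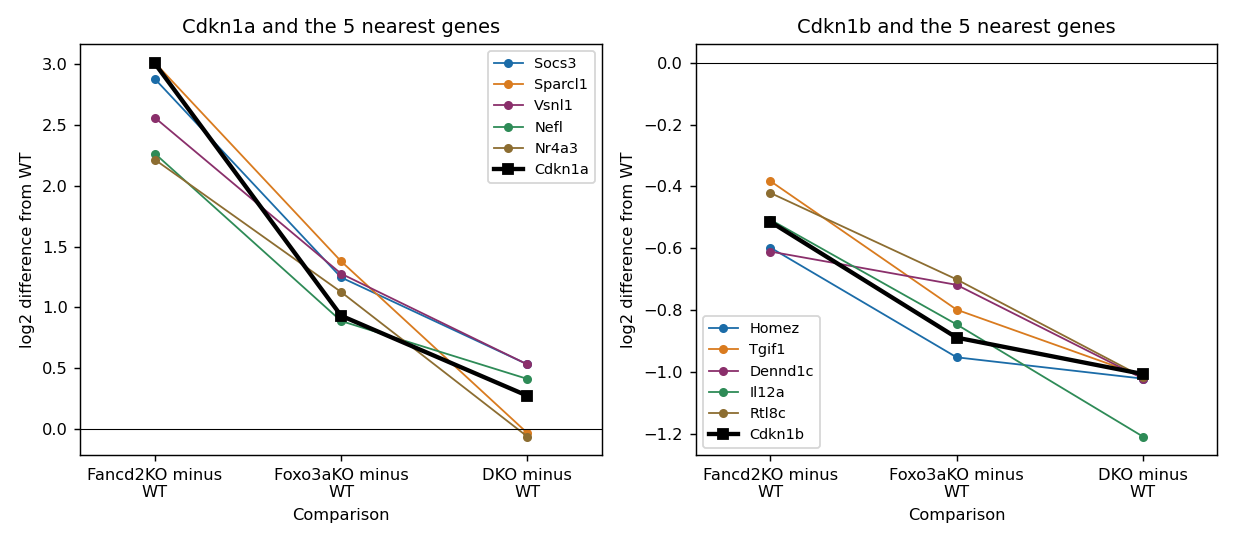
Log2 difference from WT (y axis) in Fancd2KO, Foxo3aKO and DKO (x axis) for Cdkn1a (left) and Cdkn1b (right) in black and the 5 genes nearest to each in colour; points are differences between single arrays, and lines only join the points of a gene. Cdkn1a and its neighbours run from over 2 down to near 0, and Cdkn1b and its neighbours from about -0.5 to about -1.

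Markers of other cells in or near the gate moved beside the members. The mean of the genes of multipotent progenitors, the CD34-positive stage after the stem cell, ran in the order of Cdkn1b. It was 8.34 log2 on the WT array, 7.50 on Fancd2KO, 7.38 on Foxo3aKO and 7.14 on DKO. Below WT were 7 of 7 measured on the Fancd2KO array, 7 of 7 on the Foxo3aKO array and 6 of 7 on the DKO array. By comparison, 27.6% of all genes were below WT on all 3 knockout arrays, and the share on each single array was not counted. Lower differences in DKO were led by Dntt (-3.12), Flt3 (-2.30) and Il7r. Cd48 (0.52), picked out after its values were seen, was above WT there. Endothelial and stromal markers had their highest mean on the array with the highest Cdkn1a signal, at 5.66 log2 in Fancd2KO against 5.24 in WT, 5.12 in Foxo3aKO and 5.33 in DKO. Sparc (1.32) led them there and reached the floor on that array alone. Of the 6 at the floor, 4 were above WT in Fancd2KO and 2 below it, Pdgfrb (-0.57) and Pecam1 (-0.18). In WT, Sparc (5.17), Cxcl12 (5.44) and Col1a1 (5.07) were under the floor and entered the count through arrays where they were higher. The count above WT therefore depends on the floor. Of these 11 genes, 5 to 8 were below the floor on each array. The mean of the B cell markers also ran in the order of Cdkn1b, with signals in WT, Fancd2KO, Foxo3aKO and DKO of 6.15, 5.97, 5.71 and 5.51 log2, and 7 of 7 at the floor were below WT in DKO, led by Vpreb3 (-1.47), Cd79a (-1.39) and Igll1 (-1.07). In Fancd2KO 5 of these 7 were below WT, while Igll1 (0.91) and Ebf1 (0.56) were above it. Megakaryocyte and erythroid means were below WT on every knockout array too, though not lowest in DKO, at 6.71, 6.04, 5.55 and 5.78 and at 7.15, 6.59, 6.50 and 7.05 in the same order. Of the 4 megakaryocyte genes at the floor, 2 were above WT in Fancd2KO, Pf4 (0.34) and Itga2b (0.33), with a median of 0.13 log2, while the platelet chemokine gene Ppbp was far below it on all 3 arrays (-3.11, -3.29 and -3.39). Of 8 erythroid genes, the number below WT was 8 on the Fancd2KO array, 7 on Foxo3aKO and 5 on DKO. Car1, the carbonic anhydrase gene, had differences of -1.42, -1.48 and 0.60, and Epor (0.64) and Gata1 (0.47) were also above WT in DKO. Mast cell, basophil and eosinophil means were below WT as well, at 7.61, 6.49, 7.38 and 6.18. Of the 8 genes at the floor, 8 were below WT in Fancd2KO and in DKO. In Foxo3aKO 4 were above WT and 4 below it, among them Mcpt8 (0.85) above and Epx (-1.81) and Prg3 (-1.15) below. Of the 11 measured, 3 were below the floor on the WT array and 4 on each knockout array. Monocyte and macrophage means were 7.56, 7.16, 8.01 and 8.30, those of T and NK cells 6.07, 6.24, 6.63 and 6.16, and those of dendritic cells 6.18, 5.96, 6.27 and 5.99. The part of cell composition in the differences of Cdkn1a and Cdkn1b was not tested.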

How the data were processed

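One array per genotype was hybridised with RNA of the sorted cells (Affymetrix Mouse Gene ST). The deposited table holds log2 expression values per probe set from the authors, a scale read from the range of the values. Affymetrix Expression Console is the tool that the submitters' processing notes name. Its version, the summarisation, the normalisation and the genome build are not given in the sources used here, and values were used as deposited.

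The platform annotation gave the gene names. Of 41345 probe sets, 23521 had 1 symbol, 1814 several and 16010 no listed gene. The probe set with the highest mean stood for its gene, which gave 22180 genes, and 12041 reached the floor. Log2 differences were taken between each knockout and WT, between DKO and each other knockout, and between DKO and the additive level, which is the sum of Fancd2KO and Foxo3aKO less WT. Calls were differences of at least 2-fold. The number of arrays, 1 per genotype, limits the precision, so there was no test.

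The members, the 10 gene lists and the 11 marker lists were chosen with earlier results of these data known. Named genes were all members, up to 4 genes per list with the largest difference among those 2-fold apart (2 where none was), up to 3 markers for lists that moved with a member, and the 5 genes nearest to each member that was 2-fold apart from WT. Predicted genes, clones, pseudogenes, small RNAs and receptor segments were not named. Genes outside the rule are marked where they appear, and listed genes with no probe set of 1 symbol were not used here.

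Alternatives were quantile normalisation and cyclic loess (limma 3.58.1, R 4.3.3), centring on array medians, the mean of all probe sets, raising dim values to the floor or to the GC rich background (6.42 log2, the median of controls with at least 20 of 25 bases G or C), thresholds of 1.5-fold and 3-fold, no floor and a floor at the 75th percentile. The calculations were tested on simulated data.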

Additional observations from a re-analysis of the deposited data

Results flagged for a closer look

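The difference in Cdkn1a with each loss had opposite signs in the other genotype's presence and absence. Fancd2 loss went with a log2 difference of 3.01 where Foxo3a was present and -0.66 where it was labelled as lost. Foxo3a loss went with 0.93 where Fancd2 was present and -2.74 where it was lost. The smaller value of each pair, -0.66 and 0.93, lies inside the 95% limit of disagreement between probe sets (0.95 and 0.94), so its sign is uncertain. For Cdkn2d the differences with Fancd2 loss were 0.22 and -0.46, and those with Foxo3a loss 0.19 and -0.49, all within the SD of disagreement between probe sets. Each effect rests on 1 array per genotype, so whether the effects differ was not tested. For each gene, both pairs are calculated from the same arrays, so they are not separate results.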

How the results depend on the processing

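Each genotype has 1 array, so no replicate could be left out. No paired analysis was possible because each genotype has 1 array and the groups share fewer than 2 replicate numbers. Of the member differences recomputed, 251 moved by less than the SD of disagreement between probe sets and 0 of the called ones changed sign. The remaining 1 was Cdkn1c in DKO, which became 0 with values raised to the GC rich background. The mean of all probe sets leaves the members as they are by construction, since each has 1. Members at least 2-fold lower in DKO than WT became 0 with quantile normalisation, cyclic loess and a 3-fold threshold. At 1.5-fold, 1 member was higher and 1 lower in Foxo3aKO than WT, 1 was higher in DKO than Fancd2KO, 1 was lower in DKO than Foxo3aKO and 2 were below the additive level. Of the list medians, 343 moved by less than 0.1 log2 and 17 by more, all with dim values raised. Counts of genes past the threshold moved by over 1.5 times as follows, in the order Fancd2KO, Foxo3aKO and DKO against WT, then DKO against Fancd2KO, Foxo3aKO and the additive level. At 1.5-fold, 664, 705, 608, 642, 702 and 1631 genes were higher and 757, 918, 758, 735, 785 and 1365 lower. At 3-fold, 51, 59, 57, 69, 46 and 121 genes were higher and 36, 26, 50, 46, 78 and 196 lower. With the floor at the 75th percentile, 94, 129, 83, 96, 69 and 233 genes were higher and 75, 90, 101, 97, 171 and 282 lower. With values raised to the GC rich background, 74, 109, 66, 79, 63 and 232 genes were higher and 65, 83, 86, 81, 154 and 275 lower. With dim values raised to the floor, 134 genes were higher in Fancd2KO than WT in place of 202. The threshold and the floor set these counts by construction.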
